A study of Mus musculus with 16 samples.

Results

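The genes examined here encode the subunits of eIF4F, the eIF4A paralogues and the cofactors of the helicase, 10 genes of the 20622 with total RNA values. They were taken by symbol, not by a measured value: Eif4a1, Eif4a2 and Eif4a3 (the eIF4A family), Eif4e and Eif4e2 (cap-binding proteins), Eif4g1, Eif4g2 and Eif4g3 (scaffold proteins), and Eif4b and Eif4h (cofactors). KM cells are lung tumour cells grown from a mouse whose genotype includes Rosa26 LSL-MYC/LSL-MYC, so the cells of every library, controls included, carry the MYC transgene at both Rosa26 copies. KM_NTC cells had received a lentiviral CRISPR vector with a non-targeting guide, and KM_4A2cr cells the same vector with a guide against the coding region of Eif4a2. After puromycin selection, 4 clones that were negative for eIF4A2 on a Western blot were pooled to make the KM_4A2cr line, whereas no clonal selection is described for KM_NTC. Cells of both lines were untreated and were sampled in 4 independent experiments, and each lysate gave a library of ribosome-protected fragments (RPFs, the stretches of mRNA that ribosomes shield from RNase) and one of cytoplasmic total RNA, 16 libraries in all.

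eIF4F assembles on the 5′ cap of mRNAs and brings them to the ribosome. eIF4E binds the cap, eIF4G is the scaffold, and eIF4A is the RNA helicase that unwinds structure ahead of the small ribosomal subunit, with eIF4B and eIF4H stimulating its activity. eIF4A1 and eIF4A2 are close paralogues that can both enter eIF4F, and eIF4A2 has also been linked to mRNA repression through the CCR4-NOT complex, while eIF4A3 is a core subunit of the exon junction complex, which marks spliced mRNAs. The comparison of KM_4A2cr with KM_NTC cells therefore asks how the other subunits stand when eIF4A2 is targeted, and whether a paralogue rose as Eif4a2 fell.

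RPF libraries held 4512403 to 9621848 counts in coding sequences and total RNA libraries 5350919 to 9312622. The replicate 4 libraries of both lines stood apart from the others, and for some results the value without that pair is also given. The identity of the cells was read from epithelial and alveolar type II markers: 6 of 12 reached 1 CPM (counts per 1000000 of the library total after scaling), with Epcam at 956 to 1636 CPM in KM_NTC and 1632 to 2762 in KM_4A2cr total RNA. Of the alveolar type II markers, Sftpc and Sftpb had no count and Nkx2-1 had 3 counts in all, whereas Abca3 was present at 75.5 to 138 CPM in KM_NTC and 118 to 194 in KM_4A2cr and rose (log2 fold change 0.62, edgeR adjusted p = 0.0240). Sftpa1, Sftpd and Napsa had 2, 12 and 6 counts in all. Summed over all 12 markers, the levels ran from 4081 to 5527 CPM in KM_NTC and from 5133 to 7230 in KM_4A2cr cells. Most of that sum came from the epithelial markers Cdh1, Epcam, Krt18 and Krt8, so it says little about alveolar type II identity. Cdh1 alone had 1558 to 2459 CPM in KM_NTC and 2095 to 3118 in KM_4A2cr. Fibroblast markers reached 1 CPM in 2 of 6 cases (sums of 8.41 to 17.3 against 21.3 to 42.6 CPM), with Col3a1 and Dcn at 0. Most of that sum was Vim, which rose from between 5.33 and 12.3 to between 17.8 and 34.1 CPM (1.63, edgeR adjusted p = 0.00227), while Pdgfra was not called. Of the leukocyte markers, 2 of 5 reached it, with sums of 20.5 to 162 against 24.8 to 154 CPM and Adgre1 and Cd3e at 0. Nearly all of that sum was Cd68 (19.4 to 162 against 23.5 to 153 CPM), while Ptprc had 45 counts in all. For endothelium the count was 2 of 3, with sums of 1.35 to 6.13 against 0.568 to 4.15 CPM. The part of these levels in the results was not tested. In bulk lysates, fewer cells expressing a gene and less RNA per cell cannot be told apart.

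RPFs on the targeted gene were lower in KM_4A2cr cells but were not lost. Eif4a2 (ENSMUSG00000022884.17) had 97.7, 122, 99.8 and 389 RPF CPM in KM_NTC replicates 1 to 4, and 51.0, 88.4, 74.8 and 346 in KM_4A2cr replicates 1 to 4. The value was lower in KM_4A2cr in every pair of the same replicate number, yet replicate 4 lay far above the other replicates in both lines, so the groups overlapped. Within pairs the KM_4A2cr level was 0.523, 0.725, 0.750 and 0.889 times that of KM_NTC. The log2 fold change was −0.49 (SE 0.15, 95% interval −0.83 to −0.16), and Eif4a2 passed the threshold of 0.1 in edgeR's quasi-likelihood test with replicate number as a block (adjusted p = 0.0941). Without the replicate 4 pair the fold change was −0.60 (edgeR adjusted p = 0.00304). The call was lost when replicate 1, 2 or 3 was left out (adjusted p of 0.300, 0.377 and 0.351) and without the block (0.998). Each KM_4A2cr RPF library held at least 422 fragments of the gene. The files do not show which fragments came from edited alleles, and RPF or RNA counts from an edited gene do not measure its protein.

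Eif4a2 total RNA was closer to the control. It stood at 220, 233, 254 and 524 CPM in KM_NTC and at 183, 201, 242 and 467 CPM in KM_4A2cr. Again it was lower within each pair, with overlapping groups, and the replicate 4 libraries were the highest of each line. The log2 fold change was −0.18 (95% interval −0.46 to 0.10, edgeR adjusted p = 0.504). Translational efficiency, here the RPF level relative to the total RNA level of the same lysate, differed by −0.31 for Eif4a2 (95% interval −0.52 to −0.09). This missed the threshold in the edgeR model over all 16 libraries (adjusted p = 0.149), but passed it without replicate 4 (−0.41, adjusted p = 0.0158). The pairs gave −0.67, −0.25, −0.35 and −0.004, so that pairs 1 to 3 lay below 0 and pair 4 was close to it. Of the counts of Eif4a2, 42.6% to 50.0% per library were assigned to the isoform on which RPFs were counted, and the rest to the second isoform, with group means of 46.4% ± 2.16 and 45.9% ± 3.43 (SD, n = 4).

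**Figure D1:**
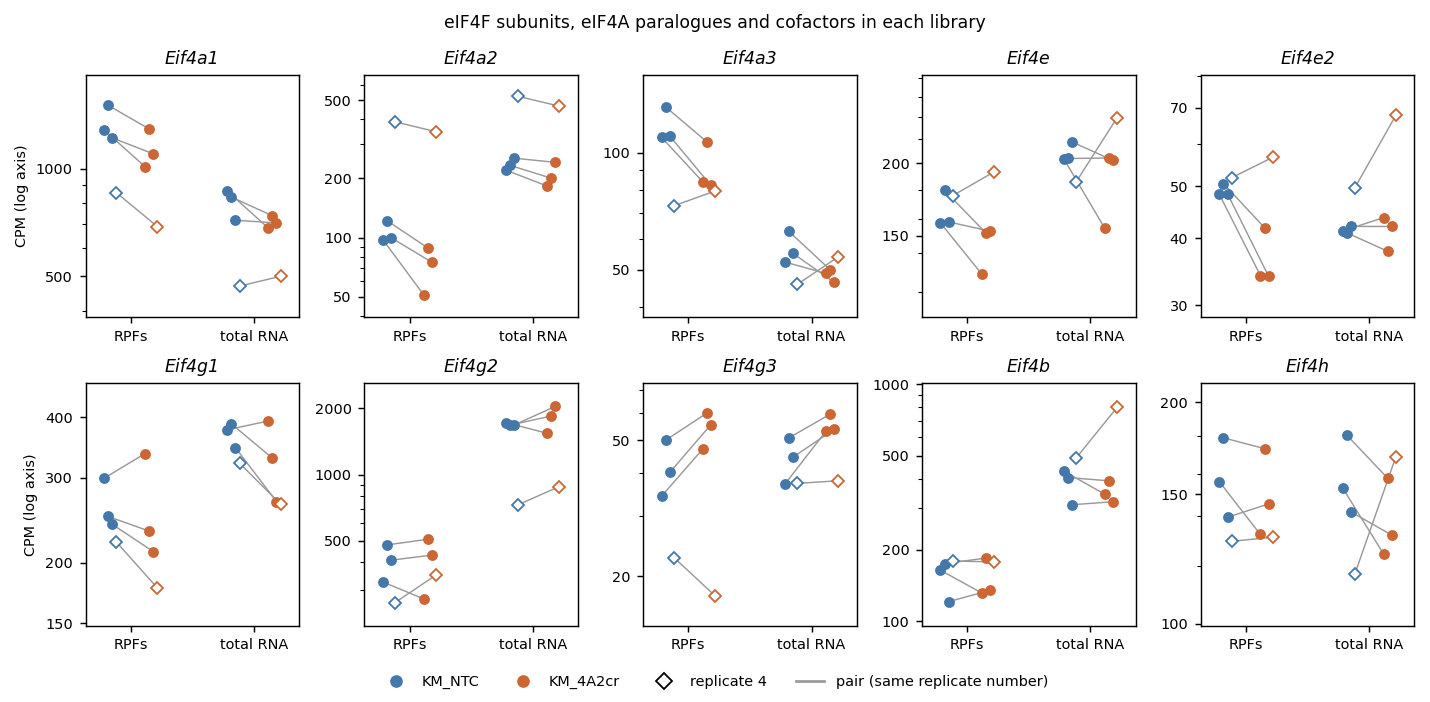
CPM of each gene in every library (log axes, differing between panels), with RPFs on the left and total RNA on the right of each panel, KM_NTC in blue, KM_4A2cr in orange, lines joining libraries of the same replicate number and open diamonds marking replicate 4. Eif4a2 RPFs fell within every pair, from 389 to 346 CPM in replicate 4 and from between 97.7 and 122 to between 51.0 and 88.4 CPM in the others.

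RPFs on Eif4a1, the main eIF4A helicase of the complex, were lower rather than higher in KM_4A2cr cells, without passing the test. Eif4a1 (ENSMUSG00000059796.17) had 1284, 1504, 1220 and 857 RPF CPM in KM_NTC and 1013, 1292, 1101 and 689 CPM in KM_4A2cr. Each KM_4A2cr value was below its pair, and replicate 4 was the lowest of each line, the opposite of Eif4a2. The log2 fold change was −0.26 (SE 0.12), with a 95% interval from −0.52 to 0.01, and the difference was not called (edgeR adjusted p = 0.230). Scaled by library size alone, which moved the median of all genes by −0.14, Eif4a1 RPFs differed by −0.38 and passed the threshold (adjusted p = 0.0689). Total RNA of Eif4a1 was 866, 833, 718 and 470 CPM in KM_NTC and 683, 739, 706 and 501 CPM in KM_4A2cr (log2 fold change −0.11, 95% interval −0.45 to 0.23, edgeR adjusted p = 0.748). It was lower in pairs 1 to 3 and higher in pair 4. Efficiency differed by −0.14 (adjusted p = 0.549). Among the 10 genes, Eif4a1 and Eif4a2 were the 2 with RPFs lower in 4 of 4 pairs, a pattern that 16.0% of all genes tested showed. In total RNA it was Eif4a2 alone, against 13.0% of all genes.

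Summed over both paralogues, RPFs were 1381, 1626, 1320 and 1246 CPM in KM_NTC and 1064, 1380, 1175 and 1035 CPM in KM_4A2cr. The sum was lower in every pair, by −0.26 ± 0.087 on the log2 scale (SD, n = 4 pairs). An exact two-sided sign-flip permutation test gave p = 0.13, the smallest that this test can give with 4 pairs, so it cannot reach 0.05. The sum of total RNA was 1087, 1066, 972 and 994 CPM in KM_NTC and 866, 940, 947 and 968 CPM in KM_4A2cr. Here the groups did not overlap, though the lowest KM_NTC value (972 CPM) was close to the highest of KM_4A2cr (968 CPM). How often sums of other genes separate the lines was not examined. The difference was −0.15 ± 0.14 (same exact test, p = 0.13). Eif4a1 itself was lower in every pair in RPFs and higher only in pair 4 in total RNA, where the sum was 968 against 994 CPM. Since Eif4a1 made up most of the RPF sum, the lower RPF sum largely restates the Eif4a1 difference, which was not called.

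The balance of the paralogues varied more between experiments than between lines, in RPFs mainly through replicate 4. Eif4a2 RPF counts were 7.61%, 8.12% and 8.19% of those of Eif4a1 in KM_NTC replicates 1 to 3 and 5.03%, 6.85% and 6.79% in KM_4A2cr, but 45.4% and 50.2% in replicate 4. Replicates 1 to 3 thus had a lower proportion of Eif4a2 in KM_4A2cr and replicate 4 a higher one. The mean log2 difference was −0.24 ± 0.30 (SD, n = 4 pairs, exact sign-flip p = 0.25), and −0.37 without replicate 4. In total RNA the proportions were 25.5%, 27.98%, 35.3% and 111% in KM_NTC and 26.8%, 27.2%, 34.2% and 93.3% in KM_4A2cr, a difference of −0.07 ± 0.14 (exact p = 0.5). The percentages compare counts without regard to length and serve only to compare libraries. Eif4a2 RPFs in replicate 4 exceeded the mean of replicates 1 to 3 by 1.87 (KM_NTC) and 2.31 (KM_4A2cr) log2 units, outside the central 90% of all genes tested in both lines (−1.25 to 1.36, and −1.76 to 1.33).

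**Figure D2:**
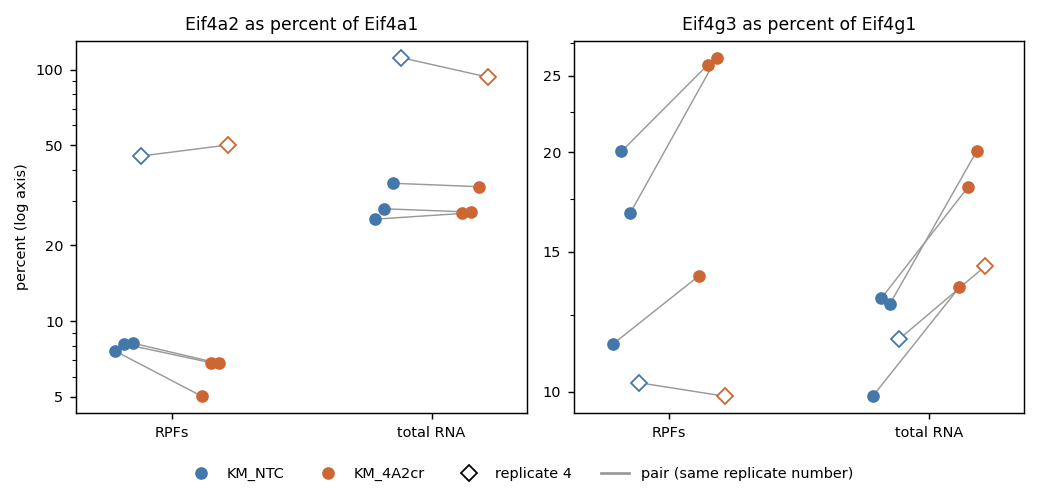
Counts of Eif4a2 as a percentage of those of Eif4a1 (left) and of Eif4g3 as a percentage of those of Eif4g1 (right) in each library, on log axes, with symbols as in the plot of CPM by library. Replicate 4 had 45.4% and 50.2% for Eif4a2 RPFs against 5.03% to 8.19% in the other libraries, and the Eif4g3 percentage in total RNA was higher in KM_4A2cr within each pair.

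Eif4a3, the exon junction complex helicase, had 109, 131, 110 and 73.0 RPF CPM in KM_NTC and 84.2, 107, 82.4 and 79.7 CPM in KM_4A2cr. It was lower in pairs 1 to 3 and higher in pair 4, and the groups overlapped (log2 fold change −0.25, 95% interval −0.56 to 0.06, edgeR adjusted p = 0.308). With replicate 4 left out the fold change was −0.36 and passed the threshold (edgeR adjusted p = 0.0158). Its total RNA differed by −0.11 (adjusted p = 0.706). Relative to Eif4a1, Eif4a3 RPF counts were 8.52% to 9.04% in KM_NTC and 7.48% to 11.6% in KM_4A2cr, with a mean log2 difference of 0.01 ± 0.30 (n = 4 pairs, exact sign-flip p = 1.0).

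Of the cap-binding proteins, Eif4e, the canonical cap-binding subunit, had 158, 179, 158 and 176 RPF CPM in KM_NTC and 129, 152, 153 and 193 CPM in KM_4A2cr. Pairs 1 to 3 were lower and pair 4 was higher (log2 fold change −0.11, 95% interval −0.40 to 0.18, edgeR adjusted p = 0.633). In total RNA Eif4e went from 204, 204, 217 and 185 CPM to 155, 204, 202 and 239 CPM (−0.03, adjusted p = 0.937), with the pairs split evenly. Eif4e2 encodes 4EHP, a cap-binding protein that does not bind eIF4G and that takes part in repression of mRNAs. Its RPFs were 48.2, 50.5, 48.3 and 51.8 CPM in KM_NTC, a narrow range, and 34.1, 41.8, 34.0 and 56.5 CPM in KM_4A2cr, lower in pairs 1 to 3 and higher in pair 4. Total RNA of Eif4e2 was 41.2, 40.9, 42.1 and 49.6 CPM in KM_NTC and 43.7, 37.8, 42.0 and 67.8 CPM in KM_4A2cr. Neither difference was called in edgeR (RPFs −0.29, adjusted p = 0.258, and total RNA 0.10, adjusted p = 0.739).

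The efficiency of Eif4e2 was lower in KM_4A2cr cells, and it was the 1 member of 10 called in this test. On the log2 scale the ratio of RPF to total RNA CPM was 0.23, 0.30, 0.20 and 0.06 in KM_NTC and −0.36, 0.15, −0.31 and −0.26 in KM_4A2cr. It fell in every pair, by 0.59, 0.16, 0.51 and 0.32, although replicate 2 of KM_4A2cr lay within the control range. The model gave −0.39 (95% interval −0.63 to −0.15, edgeR adjusted p = 0.0986), just inside the threshold of 0.1. Across all genes, 2.91% were called in the efficiency test, and the values of the 10 members ran from −0.39 for Eif4e2 to 0.10 for Eif4g1. The call was lost when replicate 1, 2 or 3 was left out (adjusted p of 0.486, 0.238 and 0.413) and kept without replicate 4 (0.0669). The remaining settings gave adjusted p from 0.0778 to 1.00, DESeq2 gave 0.224, and counting only the isoform that carries the RPFs gave 0.385. Eif4e2 counts were spread over 7 isoforms, of which the RPF isoform took 19.2% to 26.5%. Relative to Eif4e, Eif4e2 RPF counts were 30.6%, 28.2%, 30.5% and 29.5% in KM_NTC and 26.4%, 27.6%, 22.2% and 29.3% in KM_4A2cr, lower in 4 of 4 pairs (−0.18 ± 0.21, exact sign-flip p = 0.13).

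The scaffolds differed in the sign of their fold changes, and none passed the threshold over all replicates. Eif4g1, the main scaffold that holds eIF4E and eIF4A together, had 299, 249, 240 and 221 RPF CPM in KM_NTC and 336, 233, 211 and 177 CPM in KM_4A2cr. Pair 1 was higher and the others lower (log2 fold change −0.11, edgeR adjusted p = 0.659). Its total RNA was 377, 388, 346 and 321 CPM in KM_NTC and 393, 329, 268 and 264 CPM in KM_4A2cr (−0.21, 95% interval −0.51 to 0.10, adjusted p = 0.478). Eif4g2 encodes DAP5, a scaffold without the eIF4E-binding region. Its RPFs were 325, 479, 408 and 262 CPM against 272, 508, 431 and 350 CPM (0.08, edgeR adjusted p = 0.766). Eif4g2 total RNA was 1724, 1678, 1682 and 730 CPM in KM_NTC and 1541, 1846, 2041 and 883 CPM in KM_4A2cr (0.13, adjusted p = 0.741), with replicate 4 at less than the level of every other library in both lines.

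Eif4g3, the second canonical scaffold, was the member with the highest fold change in both assays. Its RPFs were 34.3, 50.0, 40.3 and 22.7 CPM in KM_NTC and 47.1, 60.0, 55.6 and 17.5 CPM in KM_4A2cr. Pairs 1 to 3 were higher and pair 4 was lower, and the groups overlapped (log2 fold change 0.24, 95% interval −0.12 to 0.60, edgeR adjusted p = 0.403). Total RNA of Eif4g3 was 37.2, 50.8, 44.6 and 37.4 CPM in KM_NTC and 53.1, 59.6, 53.8 and 38.0 CPM in KM_4A2cr, higher in every pair but only just so in pair 4 (0.26, 95% interval −0.02 to 0.55, edgeR adjusted p = 0.314). With replicate 4 left out the fold changes were 0.39 (adjusted p = 0.0223) and 0.32 (adjusted p = 0.0352), both past the threshold. The Eif4g3 to Eif4g1 proportion in total RNA was 9.87%, 13.1%, 12.9% and 11.6% in KM_NTC and 13.5%, 18.1%, 20.1% and 14.4% in KM_4A2cr. These groups did not overlap, though the highest KM_NTC value (13.1%) was close to the lowest of KM_4A2cr (13.5%). How often ratios of other genes separate the lines was not examined. The log2 difference was 0.47 ± 0.14 (SD, n = 4 pairs, exact sign-flip p = 0.13). In RPFs the proportion differed by 0.31 ± 0.29 (exact p = 0.25), with pairs 1 to 3 higher and pair 4 slightly lower. The sum of Eif4g1 and Eif4g3 RPFs differed by −0.06 ± 0.21 (exact p = 0.625). In all, 16 ratios and sums were tested, and the lowest Benjamini-Hochberg adjusted sign-flip permutation p was 0.444.

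The cofactors of the helicase were near the control in RPFs. Eif4b, which stimulates eIF4A and is a target of growth signalling, had 164, 175, 121 and 179 RPF CPM in KM_NTC and 132, 185, 135 and 178 CPM in KM_4A2cr (log2 fold change −0.02, 95% interval −0.32 to 0.27, edgeR adjusted p = 0.930). In total RNA Eif4b stood at 431, 404, 310 and 488 CPM against 344, 391, 319 and 800 CPM (0.09, adjusted p = 0.833). The KM_4A2cr replicate 4 library was above all others, 1.64 times its pair. Eif4h, a smaller cofactor related to eIF4B, had 156, 179, 140 and 129 RPF CPM in KM_NTC and 132, 173, 145 and 131 CPM in KM_4A2cr (−0.05, edgeR adjusted p = 0.826). Its total RNA was 153, 181, 142 and 117 CPM against 124, 158, 132 and 169 CPM (−0.02, adjusted p = 0.965), with pair 4 moving up while pairs 1 to 3 moved down. Efficiency in pair 4 was −0.72 for Eif4b and −0.51 for Eif4h, and lay between 0.01 and 0.17 in the other pairs.

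**Figure D3:**
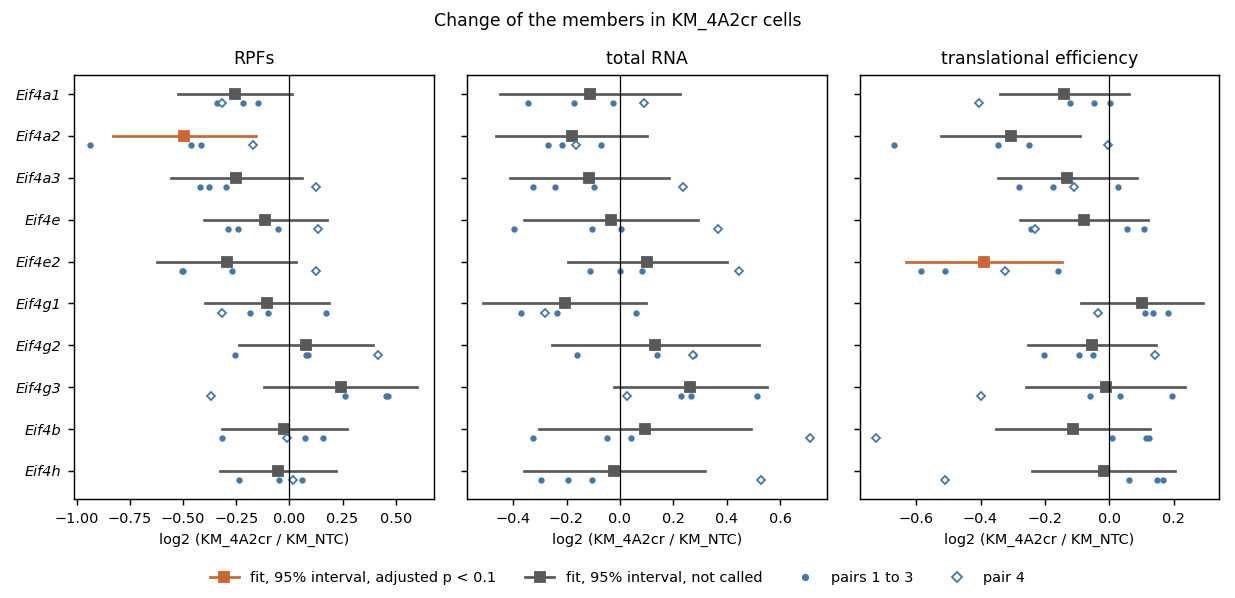
Log2 fold change between KM_4A2cr and KM_NTC for each gene in RPFs, total RNA and translational efficiency, with squares and bars for the fitted value and its 95% interval (orange where adjusted p was under 0.1) and small symbols for the pairs (open diamond: pair 4). Of the 10 genes, Eif4a2 was called in RPFs (−0.49), none in total RNA, and Eif4e2 in efficiency (−0.39).

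Read across the 10 genes, 1 was called lower in RPFs, beside 10.3% of all 10291 genes tested, and 0 in total RNA in edgeR, beside 6.13% of all 10880. The unadjusted edgeR p was under 0.05 for 1 member in RPFs, 0 in total RNA and 2 in efficiency, beside 23.4%, 18.3% and 14.1% of all genes. In total RNA DESeq2 called 0 members, beside 589 of 10880 genes. Leaving out replicate 4 gave 1 in total RNA (Eif4g3), beside 3260 of 10941 genes. The median log2 fold change of the members was −0.11 in RPFs (8 of 10 below 0), −0.03 in total RNA (6 below 0) and −0.10 in efficiency (9 below 0), while the medians over all genes tested were −0.01, 0.01 and −0.02. Without replicate 4, 4 members were called in RPFs (Eif4a2, Eif4a3 and Eif4e2 lower, Eif4g3 higher), beside 3469 of 10376 genes, and 2 in efficiency (Eif4a2 and Eif4e2), beside 673 of 10072.

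Levels were compared between genes only in total RNA per transcript length, as TPM summed over the isoforms of a gene. In KM_NTC cells Eif4a1 was the highest at 811 ± 288 TPM (SD, n = 4), followed by Eif4g2 (542 ± 225), Eif4e (337 ± 67.6), Eif4b (270 ± 49.8) and Eif4a2 (227 ± 72.0). Below these came Eif4g1 (121 ± 27.4), Eif4h (112 ± 36.4), Eif4a3 (72.0 ± 20.0), Eif4e2 (48.3 ± 4.12) and Eif4g3 (11.8 ± 3.21). Neighbours in this order had overlapping ranges of libraries except Eif4a2 over Eif4g1 and Eif4e2 over Eif4g3. Eif4a1 exceeded Eif4a2 in each KM_NTC library, with 955, 1085, 780 and 422 TPM against 170, 214, 194 and 332 TPM. In KM_4A2cr cells the TPM of Eif4a1 was 665 ± 237 and that of Eif4a2 was 174 ± 35.5. The order depends on how counts were shared among isoforms: as CPM per kb of the longest isoform, Eif4e fell from rank 3 to 7 and Eif4a2 rose from 5 to 3, while Eif4a1 and Eif4g2 stayed at the top. The 6 isoforms of Eif4g1 each took between 12.8% and 19.6% of its counts.

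**Figure D4:**
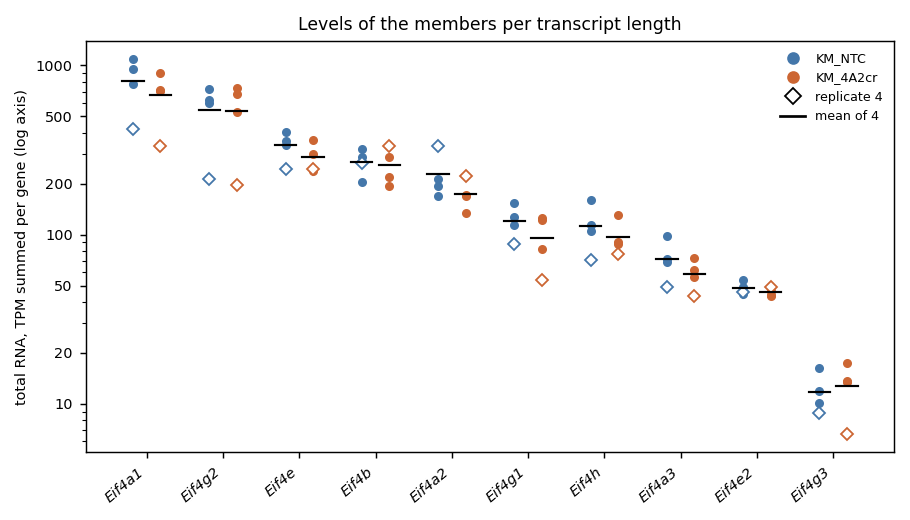
Total RNA level of each gene in TPM summed over isoforms (log axis), ordered by the KM_NTC mean, with filled points for replicates 1 to 3, open diamonds for replicate 4 and a black line for the mean of 4. Eif4a1 led at 811 TPM and Eif4g3 was lowest at 11.8 TPM in KM_NTC.

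Around the complex stand its regulators: the eIF4E-binding proteins, which compete with eIF4G for eIF4E, Pdcd4, which sequesters eIF4A, the kinases that phosphorylate eIF4E, the poly(A)-binding proteins with their partners, the 4EHP partners Gigyf1, Gigyf2 and Zfp598, and the further cap-binding paralogues Eif4e3 and Eif4e1b. Of 17 such genes listed, 15 were expressed enough to be tested, all but Eif4e3 and Eif4e1b. In RPFs 1 was called higher and 0 lower (10.3% of all genes were called). RPF fold changes of the list ran from −0.59 for Mknk2, an eIF4E kinase that was not called (edgeR adjusted p = 0.181), to 0.74 for Eif4ebp2. In total RNA 0 were called in edgeR (6.13% of all genes), and in efficiency 3 were called higher (2.91% of all genes). DESeq2 called 0 in total RNA, beside 589 of 10880 genes. The unadjusted edgeR p was under 0.05 for 3, 1 and 6 of the regulators, beside 23.4%, 18.3% and 14.1% of all genes. The medians of the list were 0.16, −0.10 and 0.21 in the 3 tests, beside −0.01, 0.01 and −0.02 over all genes.

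Eif4ebp2, which encodes the repressor 4E-BP2, was the regulator called higher in RPFs. It had 7.42, 3.97, 6.03 and 2.94 RPF CPM in KM_NTC and 11.6, 5.66, 8.42 and 9.42 CPM in KM_4A2cr, on counts as low as 14 in a library. Every pair was higher, by 1.54, 1.40, 1.38 and 3.03 times, and the groups overlapped (log2 fold change 0.74, 95% interval 0.25 to 1.22, edgeR adjusted p = 0.0856). Eif4ebp2 total RNA differed by 0.09 (adjusted p = 0.736) and efficiency by 0.64 (adjusted p = 0.0893). The RPF call was lost in DESeq2 (adjusted p = 0.117) and when replicate 1, 2 or 3 was left out (adjusted p of 0.223, 0.252 and 0.275), and held without replicate 4 (0.56, adjusted p = 0.0407). The efficiency call was lost on leaving out each of the 4 replicates (adjusted p of 0.416, 0.20, 0.235 and 0.104) and in DESeq2 (0.134).

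Eif4enif1 encodes 4E-T, which carries eIF4E into the nucleus and to sites of mRNA storage and decay. Its RPFs were 25.3, 24.7, 29.0 and 27.9 CPM in KM_NTC and 33.3, 26.2, 36.2 and 38.5 CPM in KM_4A2cr, and its total RNA was 74.1, 77.2, 77.1 and 70.9 against 53.5, 70.2, 81.2 and 64.3 CPM. Efficiency was higher in every pair (0.86, 0.22, 0.24 and 0.61) with a fitted difference of 0.48 (95% interval 0.22 to 0.73, edgeR adjusted p = 0.0666). The call for Eif4enif1 was lost without replicate 1, 2 or 3 (adjusted p of 0.474, 0.165 and 0.211) and in DESeq2 (adjusted p = 0.118), and kept without replicate 4 (0.0432).

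Paip1, a partner of the poly(A)-binding protein that also contacts eIF4A, had 76.9, 63.0, 58.9 and 58.3 RPF CPM in KM_NTC and 85.6, 68.3, 71.4 and 61.9 CPM in KM_4A2cr. Total RNA of Paip1 was 138, 144, 141 and 106 CPM in KM_NTC and 103, 131, 135 and 93.1 CPM in KM_4A2cr, so that it stood lower in RNA and higher in RPFs within each pair. Only the difference in efficiency was called (0.37, 95% interval 0.16 to 0.57, edgeR adjusted p = 0.0785). It was lost without replicate 1, 2 or 3 (adjusted p of 0.474, 0.240 and 0.226) and kept without replicate 4 (0.0199).

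Among the more abundant regulators that were not called, Pabpc1, the main cytoplasmic poly(A)-binding protein, differed by 0.17 in RPFs and 0.16 in total RNA (edgeR adjusted p of 0.430 and 0.651). Pabpc1 RPFs were 196, 211, 201 and 421 CPM in KM_NTC and 218, 263, 234 and 419 CPM in KM_4A2cr, with replicate 4 the highest of both lines as for Eif4a2. Pabpc4 differed by 0.19 in RPFs and 0.28 in total RNA, Paip2, an inhibitor of the poly(A)-binding protein, by 0.12 and −0.12, and Eif4ebp1, the main eIF4E-binding repressor, by 0.02 and 0.06. For these 4 genes the lowest adjusted p in the 3 edgeR tests was 0.299, for the efficiency of Paip2.

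**Figure D5:**
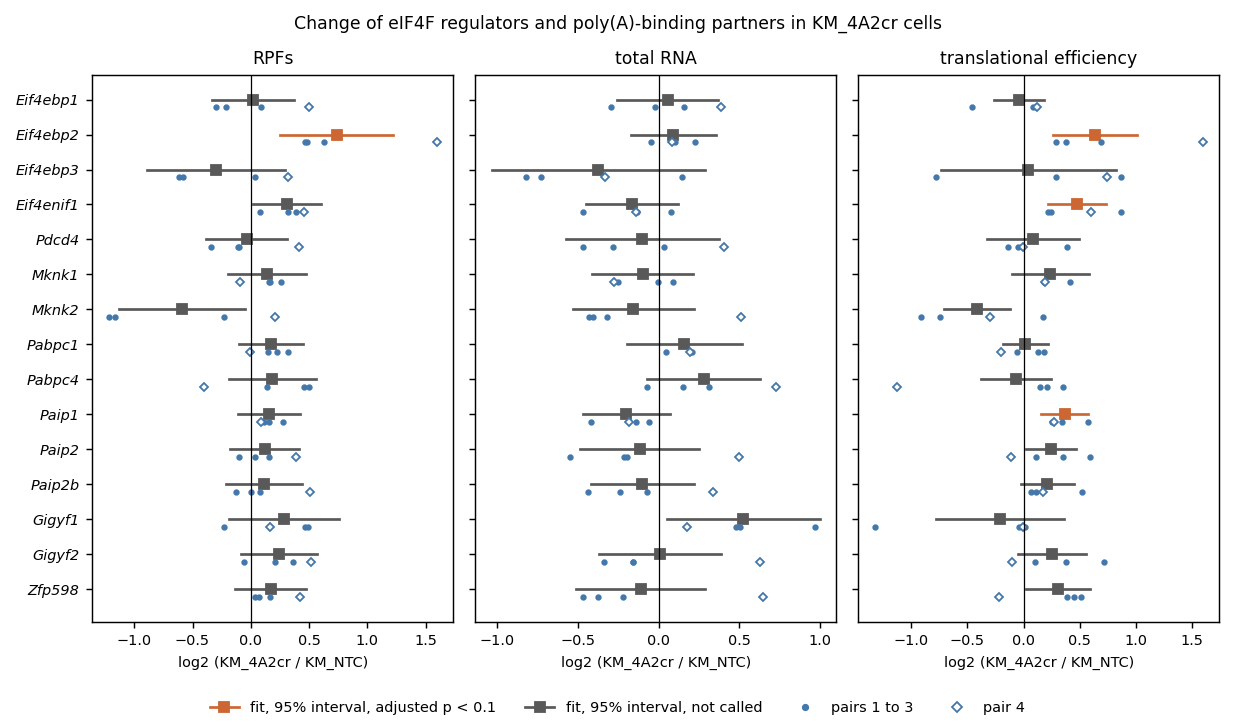
Log2 fold change between KM_4A2cr and KM_NTC of the 15 regulators tested, drawn as in the plot of fold changes of the subunits. Eif4ebp2 was called in RPFs (0.74), and Eif4ebp2, Eif4enif1 and Paip1 in efficiency (0.64, 0.48 and 0.37).

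The partners of eIF4A3 in the exon junction complex were examined in the same way. All 10 genes of the list were tested and 0 were called in RPFs, total RNA or efficiency in edgeR, with 0, 0 and 2 at an unadjusted p under 0.05, and DESeq2 called 0 in each. Over all genes 10.3%, 6.13% and 2.91% were called in edgeR, and 23.4%, 18.3% and 14.1% had an unadjusted p under 0.05. Over all genes DESeq2 called 958, 589 and 139. RPF fold changes of the partners ran from −0.30 to 0.37 (median −0.03), beside −0.25 for Eif4a3 itself. Those with the most RPFs were Pnn (0.15 in RPFs), Acin1 (−0.08), Magoh, a core subunit (0.00), and Rnps1 (−0.30, lower in 4 of 4 pairs, edgeR adjusted p = 0.234). Without replicate 4, Rnps1 passed the threshold (−0.37, edgeR adjusted p = 0.0345), in a setting where 3469 of 10376 genes were called in RPFs.

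The RPF profile over the 8 libraries was also compared with every other gene tested. For Eif4a2 the most alike by Pearson's r of log2 RPF CPM were ENSMUSG00000118663.1, which has no symbol in the table used (0.994), Wdr70 (0.994), Sik1 (0.982), Atf7 (0.980) and Vapa (0.9749). For Eif4a1 they were Aatf (0.998), Ints4 (0.995), Ift80 (0.994), Ssrp1 (0.994) and Fbxl12 (0.992). Over the 6 libraries without replicate 4, r was 0.894 to 0.958 for the 5 genes like Eif4a2 and 0.972 to 0.990 for those like Eif4a1. The genes were picked by r over all 8 libraries, these 6 included, so this is not an independent check. The correlation of Eif4a2 with Eif4a1 was −0.64, and that of Eif4a1 with Eif4a3 was 0.87. Replicate 4 was the highest library of each line for Eif4a2 and the lowest for Eif4a1. No correlation between these members was computed without it. Among the other replicates, both Eif4a1 and Eif4a2 were highest in replicate 2 of each line, and both were lower in KM_4A2cr in every pair. The correlations are descriptions over 8 libraries that share their experiments in pairs.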

How the data were processed

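RPF files hold, per the labels and the study's methods, whole counts of UMI-collapsed reads (cutadapt 1.18 and UMI-tools 1.0.1 in the submitters' processing notes) within coding sequences, on 1 transcript per gene. The authors made the total RNA files with Bowtie2 2.3.5.1 and RSEM 1.3.3, and these deposited files give expected counts and TPM per isoform. Both used GENCODE mouse transcripts, and RPFs were aligned with BBmap. One allele of the cells' genotype is not reported here. No coordinates are given, since no genome of that build was used here. RPF files held 15235 transcripts, each of a different gene, and the total RNA files listed 38315 isoforms of 20622 genes, of which 20586 had a symbol. Expected counts were summed per gene and rounded to whole numbers, since each library had between 27 and 58 isoforms with fractional values.

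Genes were filtered with filterByExpr, scaled by TMM factors and tested with edgeR 4.0.16 (quasi-likelihood, R 4.3.3) with replicate number as a block. Values were Benjamini-Hochberg adjusted over all genes and called at an adjusted p under 0.1. Translational efficiency was the interaction of line and library type over all 16 libraries. CPM used the scaled library totals and a prior count of 2 on the log scale. Ratios were compared by exact sign-flip permutation. The study's replicates were separate experiments on different days. Libraries with the same number deviated together in each pair of lines (r of 0.575 to 0.782 in RPFs and 0.611 to 0.756 in total RNA), so the numbers were taken to pair the samples. Both lines came from 1 tumour cell source, so p-values cover the spread between experiments. The fits were first tested on simulated counts with known changes. Those changes were larger than any fitted for the members, so the simulation does not show how well changes of the members' size are recovered.

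The members and lists were chosen with earlier results of these data known. Named beside the members were every regulator and exon junction gene called in any test, and up to 4 others of each list with the highest mean RPF CPM. So were the regulator with the lowest RPF fold change and the 5 genes most correlated with Eif4a2 and with Eif4a1. Alternatives were no block, DESeq2 1.42.0, other scalings and filters, a threshold of 0.05, the RPF isoform only, and leaving out each replicate. With no protein, transcript or genome sequences of the members used here, reads shared between paralogues were not examined, and Eif4a1 and Eif4a2 counts are uncertain to that extent. Intervals cover the spread between libraries.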

Additional observations from a re-analysis of the deposited data

Results flagged for a closer look

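Each member, ratio and sum was examined by line and assay, 72 groups of 4 libraries. Of these groups, 9 held a library whose gap to the nearest other exceeded Dixon's 95% limit. Chance gives about 1 in 20 for independent groups, but the ratios and sums reuse the members' values. Of the 9 libraries flagged, 8 were replicate 4. For single genes these were all in KM_NTC replicate 4: Eif4a2 RPFs at 389 CPM and total RNA at 524 CPM, both far above the other replicates, Eif4e2 total RNA at 49.6 CPM, above the others, and Eif4g2 total RNA at 730 CPM, below them. Among the ratios, log2 Eif4a2 to Eif4a1 in RPFs was −1.14 in KM_NTC and −0.996 in KM_4A2cr replicate 4. In total RNA of KM_NTC replicate 4, log2 Eif4g2 to Eif4g1 was 1.184 and log2 Eif4e2 to Eif4e was −1.90. The remaining library was KM_4A2cr replicate 1, where log2 Eif4g2 to Eif4g1 in RPFs was −0.31, below the others. The RPF and total RNA effects of Eif4e2 differed by −0.39 in the interaction test (edgeR adjusted p = 0.0986).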

How the results depend on the processing

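With replicate number as a block, which pairs the libraries, edgeR called 1062 genes in RPFs (679 higher, 383 lower), 667 in total RNA (473 and 194) and 291 in efficiency (187 and 104). No gene was called without the block: 0, 0 and 0 genes (365, 362 and 22 at an unadjusted p under 0.05), hence 0 members in RPFs and 0 in efficiency. Library size alone gave 1619 genes (482 higher, 1137 lower), 1130 (262 and 868) and 132 (104 and 28), with 2 members in RPFs and 0 in efficiency. The split was 534 to 464 in RPFs and 325 to 216 in total RNA under upper-quartile scaling, and 105 to 34 of 139 genes in efficiency under DESeq2. A threshold of 0.05 left 438, 321 and 76 genes and 0 members, and no filter gave 1268 in total RNA and 475 in efficiency. In efficiency 0 members were called under DESeq2, relative log expression factors, upper-quartile scaling and the RPF isoform only, beside 139, 320, 263 and 252 genes. Leaving out 1 replicate gave 32 to 3469 genes and 0 to 4 members in RPFs, 63 to 3260 and 0 to 1 in total RNA, and 10 to 673 and 0 to 2 in efficiency, with the highest counts each time without replicate 4. The cause was not tested.

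Of 380 alternative values of the members' fold changes, 338 kept direction and side of the threshold, 15 lost the call, 6 gained one and 21 changed sign, all of these for values that were not called. Library size alone turned Eif4g2 RPFs to −0.050, total RNA of Eif4e2 to −0.055, Eif4g2 to −0.025 and Eif4b to −0.062, and efficiency of Eif4h to 0.0033. Efficiency of Eif4g3 became 0.00011 with no filter and 0.027 with no replicate block. Leaving out 1 replicate gave ranges through 0 for RPFs of Eif4g2 (−0.030 to 0.19), Eif4b (−0.055 to 0.073) and Eif4h (−0.076 to 0.0089), for total RNA of Eif4e (−0.17 to 0.086), Eif4e2 (−0.022 to 0.18), Eif4b (−0.12 to 0.24) and Eif4h (−0.21 to 0.071), and for efficiency of Eif4g2 (−0.11 to 0.024), Eif4g3 (−0.053 to 0.064), Eif4b (−0.19 to 0.090) and Eif4h (−0.078 to 0.13). Leaving out 1 pair turned the sign of the RPF differences of Eif4g1 plus Eif4g3 (−0.14 to 0.03), Eif4a3 to Eif4a1 (−0.13 to 0.11) and Eif4h to Eif4b (−0.06 to 0.0041) and of Eif4a3 to Eif4a1 in total RNA (−0.08 to 0.08), and moved Eif4g2 to Eif4g1 RPFs between 0.0075 and 0.39 and Eif4a2 to Eif4a1 total RNA between −0.12 and −0.0050. Ignoring the pairing, 2 total RNA measures with no overlap, Eif4g3 to Eif4g1 and the Eif4a1 plus Eif4a2 sum, had an exact permutation p of 0.0286. That is the smallest that 4 against 4 allows, and it was not adjusted for the 16 measures. With the pairing, the exact sign-flip p was 0.13 for both, and 0.444 after adjustment.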
